A study of Beta vulgaris subsp. vulgaris with 30 samples.

Results

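In the sugar beet gene models counted here, 582 of 21587 genes (2.70%) shared at least 1 base with a neighbouring gene. They were found by sorting all genes of the count table by chromosome, start and end and keeping each gene whose span met another span on the same chromosome. The 582 genes form 304 pairs: 561 genes lie in 1 pair, 16 in 2 pairs and 5 in 3 pairs. Pairs were classed by strand and position. A set of 218 genes forms convergent pairs, in which neighbours on opposite strands overlap at their 3′ ends. In 12 divergent pairs they overlap at their 5′ ends, and in 15 same-strand pairs the end of one gene runs into the start of the next. A further 168 pairs are nested, with one gene wholly inside a longer host: 59 inner genes lie on the strand of their host and the rest on the opposite strand. No measured expression value was used to choose them.

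Expression was measured in shoots of sugar beet (Beta vulgaris) seedlings, in 30 RNA-seq libraries of 5 groups with 6 libraries each. The groups were taken after an ethanol pretreatment followed by freezing, after water followed by freezing, after ethanol alone, after water alone, and before any pretreatment. The series text gives plants aged 7 days, pots dipped in 80 mM ethanol over 3 days and freezing overnight between -2.1 and -3.5 °C, and it names no genotype or cultivar. The titles of the frozen samples carry 3 days and 2 h, which is not the overnight freezing of the series text. Protocols attached to single samples instead describe Arabidopsis aged 14 days with 20 mM ethanol for 6 days and -4.0 °C. The gene identifiers are those of beet, so the beet text was followed. Libraries were made with Lasy-Seq, a pooled method whose reverse transcription starts at the poly(A) tail. The labels give no sampling hour, and an effect of the hour cannot be told apart from one of freezing. Separate cultures are not labelled either, so the p-values below measure only how much these samples vary.

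A short account of overlapping genes helps to read what follows. Plant genes can share DNA in several ways: convergent neighbours may run past each other's 3′ end, small genes may lie inside introns of larger ones, and both strands of a stretch may be transcribed. Transcripts from opposite strands of one stretch are complementary to each other and are known in plants as natural antisense transcripts, some of which alter the level of their partner. Overlap also matters for measurement, because a read from shared bases can be credited to one gene, to both or to neither, depending on strand and on the counting rule. None of the overlapping genes carries a gene symbol in the RefSeq table used here, and the sources used here give no product names, so no molecular roles are stated and the shoot origin was not checked against marker genes.

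Total counts ran from 3379082 to 17868082 per library (median 9268171), and the overlapping genes held 1.94 to 2.58% of them. Between 343 and 418 of the 582 had a read in a library. Over all libraries, 66 of the 582 (11.3%) had no read, against 10.1% of the whole table, and 388 (66.7%) passed the low-count filter, against 65.4% of the whole table. This filter asks for enough reads in at least 6 libraries, the size of a group, whichever groups they belong to. The 388 are therefore the better covered part of the overlapping genes, not all of them. Of the 30 libraries, 3 stood apart in a principal component analysis: ethanol replicate 4, which was also the shallowest, water replicate 3, and water-then-frozen replicate 6, which lay closest to the unfrozen libraries. Where a call described below was lost without one of these libraries, its value without that library is given.

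Overlaps were not spread evenly over the genome. Chromosomes 2, 7 and 9 carried 228 of the 304 pairs (75%), and there 435 of 7249 genes (6.00%) overlapped a neighbour, against 145 of 14323 (1.01%) on chromosomes 1, 3, 4, 5, 6 and 8. Chromosome 2 had 95 pairs and chromosome 9 had 84. Convergent overlaps were found on these 3 chromosomes alone: 46 lay on chromosome 2, 15 on chromosome 7 and 48 on chromosome 9, and 0 on any other chromosome. Of neighbours that face each other with their 3′ ends, 6.58% of 1657 overlapped on chromosomes 2, 7 and 9, against 0 of 3334 on the other 6.

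**Figure D1:**
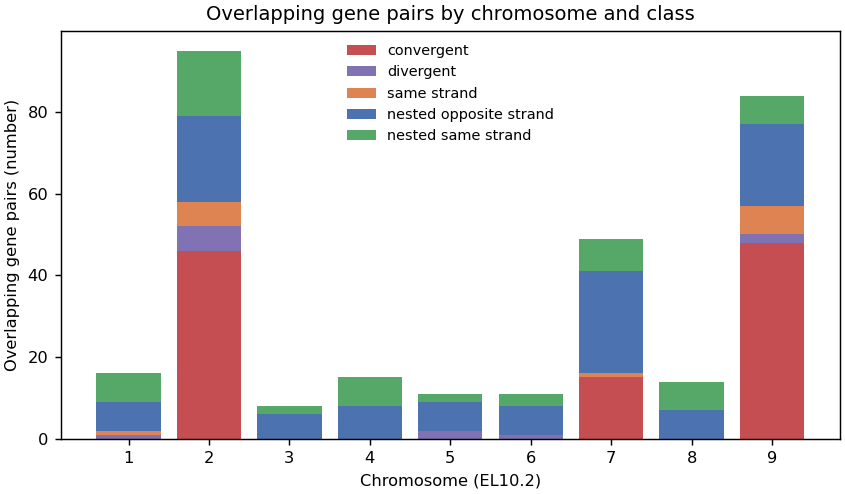
Number of overlapping gene pairs on each of the 9 chromosomes of assembly EL10.2, stacked by class. Convergent pairs appear on chromosomes 2, 7 and 9, with 46, 15 and 48 pairs, and on none of the other 6 chromosomes.

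The RefSeq annotation of the same assembly showed a far smaller contrast. Where both convergent neighbours could be matched by position to RefSeq genes, the RefSeq genes overlapped in 69 of 1030 pairs (6.70%) on chromosomes 2, 7 and 9, and in 5.22% of 2050 pairs on the other 6. The 2 annotations also differed on which pairs overlap. Both partners had a RefSeq match in 87 convergent pairs, and the matched RefSeq genes overlapped in 27, lay apart in 58 and were one and the same gene in 2. Matching took no account of strand. RefSeq matched 386 of the 582 overlapping genes (66.3%) and 75.4% of all genes in the table, and it calls 379 of the matched ones protein-coding and 4 lncRNA. What the chromosome difference comes from was not tested.

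Overlap length differed between classes. Convergent overlaps had a median of 586 bases (3 to 10744), or 16.9% of the shorter gene. Divergent overlaps had a median of 431.5 bases (187 to 1054), or 17.0% of the shorter gene, and same-strand overlaps 863 bases (21 to 8681), or 43.2%. Nested pairs overlap by the whole inner gene. Inner genes had a median length of 1072 bases on the opposite strand and 1095 bases on the strand of their host. In all, 277 pairs shared at least 100 bases and 256 shared at least 10% of the shorter gene. The longest convergent overlap joined Bevul.2G076800 and Bevul.2G076900, which share 10744 bases of chromosome 2.

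Nested pairs show how the reads of shared bases were credited, because every base of an inner gene is also a base of its host. On the same strand the inner gene never had more reads than its host, in 0 of 1532 combinations of a pair and a library with reads, although 38 of the 59 inner genes had reads and 42 combinations held equal counts above 0. On opposite strands the inner gene exceeded its host in 202 of 2973 combinations, spread over 20 pairs. Counting by strand, with a read kept for every gene it lies in, gives this arithmetic. Counting without strand under the same treatment of shared reads cannot, since a host would then hold at least the reads of its inner gene. The counting settings themselves are not given in the sources used here.

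**Figure D2:**
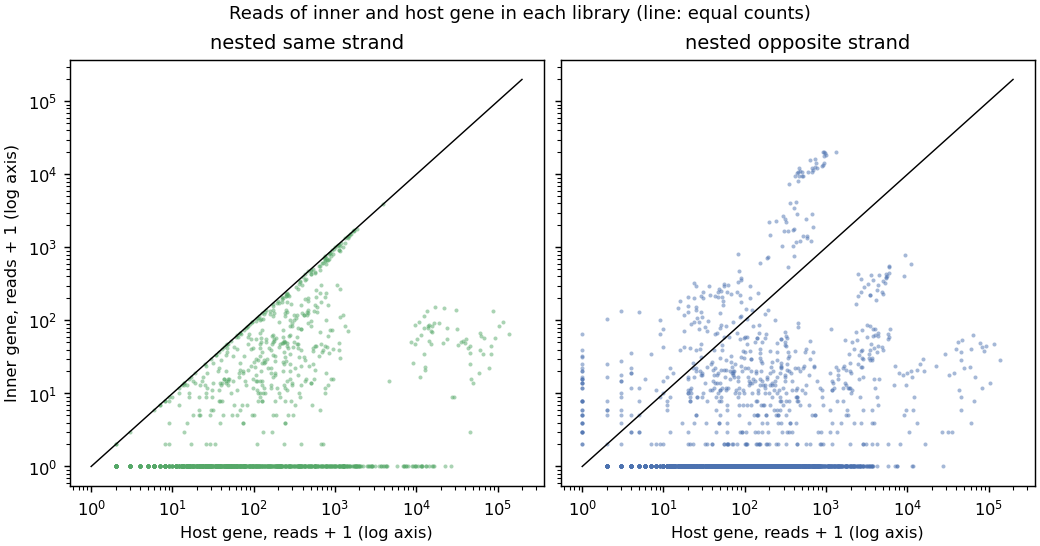
Reads of the inner gene (vertical, log axis, reads + 1) against reads of its host gene (horizontal, log axis, reads + 1), 1 point for each nested pair and library with a read, with a line at equal counts. Pairs on the same strand never cross the line, whereas 202 points of opposite-strand pairs lie above it.

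If reads were counted in that way, a host's count on the same strand includes the reads of its inner gene. Among the 38 inner genes with reads, the inner gene's total was a median of 6.82% of the host's, under 10% in 23 pairs and at least 80% in 4. The clearest case is Bevul.9G157700, a gene of 14229 bases on the plus strand of chromosome 9 (46923932 to 46938160) that RefSeq lists as the lncRNA LOC125493172. It contains the 1065 bases of Bevul.9G157800 (46934088 to 46935152), which RefSeq lists as the protein-coding LOC104883114. The inner gene spans 7.48% of the host and held 34107 reads, 98.6% of the host's 34599, with 94.5 to 100% in single libraries. On that reading, almost all reads reported for the lncRNA model touch the protein-coding gene. Likewise Bevul.9G153900 held 98.4% of the reads of Bevul.9G153800, Bevul.5G129300 held 85.8% of those of Bevul.5G129200, and Bevul.4G054600 held 84.6% of those of Bevul.4G054400. On the same reading the counts of such pairs are not independent measurements.

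At the other end, the most abundant host, Bevul.5G127500, averaged 5640 CPM (read counts per unit of library size after TMM adjustment). Its small inner gene on the same strand of chromosome 5, Bevul.5G127600 (31606175 to 31606276), averaged 4.36 CPM, and its 132-base inner gene on the opposite strand, Bevul.5G127700, averaged 2.54 CPM. Bevul.2G144200, the longest same-strand inner gene with 11625 bases, had 45 reads in all, against 20815 for its host Bevul.2G144300. Inner genes were often silent: 33.0% of those on the opposite strand and 35.6% of those on the same strand had no read, and only 20.2% and 28.8% passed the low-count filter. Hosts passed it in 91.2% and 88.5% of cases, and convergent genes in 83.0%.

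On opposite strands, some inner genes held most reads of their locus. In 6 pairs the inner gene's total was above its host's. Bevul.9G062000 on the plus strand of chromosome 9 had 388537 reads, against 20521 for its minus-strand host Bevul.9G061900, and it was higher in all 30 libraries. The same held in all 30 libraries for Bevul.7G018500 with 51983 reads inside Bevul.7G018400 with 11460, for Bevul.4G228200 with 6665 inside Bevul.4G228100 with 1545, and for Bevul.5G237100 with 3996 inside Bevul.5G237000 with 703. These are read counts, not levels per length. Both Bevul.4G228100 and Bevul.4G228200 matched a single RefSeq gene, LOC125497098. The match used position alone, so genes on opposite strands can match the same RefSeq gene. In the 2 remaining pairs, Bevul.2G157800 inside Bevul.2G157700 and Bevul.2G074900 inside Bevul.2G074800, the inner genes had 260 and 213 reads.

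Most calls among overlapping genes came with freezing. In edgeR's quasi-likelihood test, with p-values adjusted by Benjamini-Hochberg over all 14128 genes tested and a threshold of 0.05, 17 of the 388 rose and 23 fell after ethanol and freezing relative to ethanol alone. Over all genes tested, 5.78% rose and 6.53% fell in that comparison. After water and freezing relative to water alone, 13 rose and 20 fell, while 5.02% of all genes rose and 6.09% fell. The shares among overlapping genes were 4.38 and 5.93% after ethanol and 3.35 and 5.15% after water, near those of all genes. Of the 50 genes called in either comparison 23 were called in both, 10 higher and 13 lower each time, which is 57.5% of the 40 called after ethanol and 69.7% of the 33 called after water. Over all genes tested 1105 were called in both, 63.5% of those called after ethanol and 70.4% of those called after water. Without ethanol replicate 4, 33 of the 40 calls after ethanol were kept, and without water replicate 3, 28 of the 33 after water, and without water-then-frozen replicate 6, 31 of the 33. The median log2 change of the 388 was 0.00 after ethanol and 0.03 after water, beside 0.09 and 0.08 over all genes. In whole shoots, fewer cells of a type and less RNA per cell cannot be told apart.

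Convergent genes, 181 of the 388 tested, made up 20 of the 40 calls after ethanol and 20 of the 33 after water. After water and freezing 5 of the 181 convergent genes rose and 15 fell, beside 5.02% and 6.09% of all genes tested. After ethanol and freezing 8 of the 181 rose and 12 fell, beside 5.78% and 6.53% of all genes tested. Whether the share of called genes differs between classes, or between convergent genes and all genes, was not tested. Among genes of opposite-strand nested pairs, 6 rose and 9 fell after ethanol and 6 rose and 2 fell after water. Among genes of same-strand nested pairs, 3 of 63 tested rose and 3 fell after ethanol and 2 rose and 2 fell after water. Of the 24 same-strand and 16 divergent genes tested, 1 in each class passed the threshold in each comparison.

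In 130 pairs both genes passed the low-count filter, and in each freezing comparison both partners were called in 3 of them (2.31%), beside 1.79% of 9713 adjacent pairs without overlap after ethanol and 1.70% after water. One gene was called while its tested partner was not in 22 pairs after ethanol and in 22 after water, and in 16 and 6 further pairs the partner was too low to test. Such pairs were not counted among adjacent genes without overlap. The 3 pairs were the same in both comparisons: 1 convergent pair whose partners moved in opposite directions, 1 convergent pair whose partners rose together, and the nested pair Bevul.9G157700 with Bevul.9G157800, whose counts are nearly equal.

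The pair with opposite responses is Bevul.9G239400 (LOC104904992, plus strand, 55728795 to 55735176) and Bevul.9G239500 (LOC104904991, minus strand, 55734412 to 55740152), which share 765 bases of chromosome 9 at their 3′ ends. In RefSeq the 2 genes lie apart. The lowest, median and highest levels of Bevul.9G239400 were 17.0, 21.5 and 51.9 CPM after ethanol and freezing, against 9.05, 13.6 and 20.5 CPM after ethanol. After water and freezing they were 13.4, 24.8 and 32.4 CPM, against 6.94, 9.95 and 23.4 CPM after water. The groups overlapped in both comparisons, but each frozen median lay above the highest unfrozen library.

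Bevul.9G239500 showed the reverse. It reached 37.6, 46.3 and 53.4 CPM after ethanol and freezing, wholly below the 77.2, 95.1 and 106.2 CPM after ethanol. After water and freezing it reached 41.3, 43.6 and 91.6 CPM, against 62.7, 86.1 and 101.2 CPM after water, where 2 frozen libraries lay within the unfrozen range. The log2 change of Bevul.9G239400 was 0.95 ± 0.28 (SE) after ethanol (edgeR adjusted p = 0.0193) and 0.95 ± 0.28 after water (0.0197). Bevul.9G239500 changed by -1.02 ± 0.18 after ethanol (8.6e-05) and by -0.59 ± 0.18 after water (0.0262). The last call was lost when only the 2 compared groups were fitted (adjusted p = 0.0593). Over all 30 libraries the levels of the partners had a Spearman's rank correlation of -0.45, the lowest of 35 convergent pairs, but within groups rank correlation was 0.10.

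The convergent pair that rose together is Bevul.9G131000 (plus strand, 42735714 to 42741252, no RefSeq match) and Bevul.9G131100 (LOC104903884, minus strand, 42738564 to 42749671), which share 2689 bases, 48.5% of the shorter gene. Bevul.9G131000 had 40.4, 73.4 and 96.4 CPM (lowest, median, highest) after ethanol and freezing, against 19.1, 27.8 and 31.4 CPM after ethanol. After water and freezing it had 65.7, 89.1 and 121.3 CPM, against 23.8, 30.8 and 37.4 CPM after water. Every frozen library exceeded every unfrozen one of its pretreatment. Its log2 change was 1.45 ± 0.20 after ethanol (edgeR adjusted p = 1.54e-06) and 1.51 ± 0.20 after water (1.11e-06).

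Its partner Bevul.9G131100 had 16.0, 27.9 and 39.0 CPM after ethanol and freezing, against 5.57, 13.6 and 16.0 CPM after ethanol, and 22.0, 26.6 and 33.7 CPM after water and freezing, against 7.58, 8.60 and 10.7 CPM after water. The groups met at one end after ethanol and did not overlap after water. The gene rose by 1.14 ± 0.25 on the log2 scale after ethanol (edgeR adjusted p = 0.00136) and by 1.58 ± 0.26 after water (2.19e-05). The rank correlation between the partners was 0.64 over all libraries, the highest of the 35 convergent pairs, and -0.06 within groups, so the joint variation lay between the groups.

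**Figure D3:**
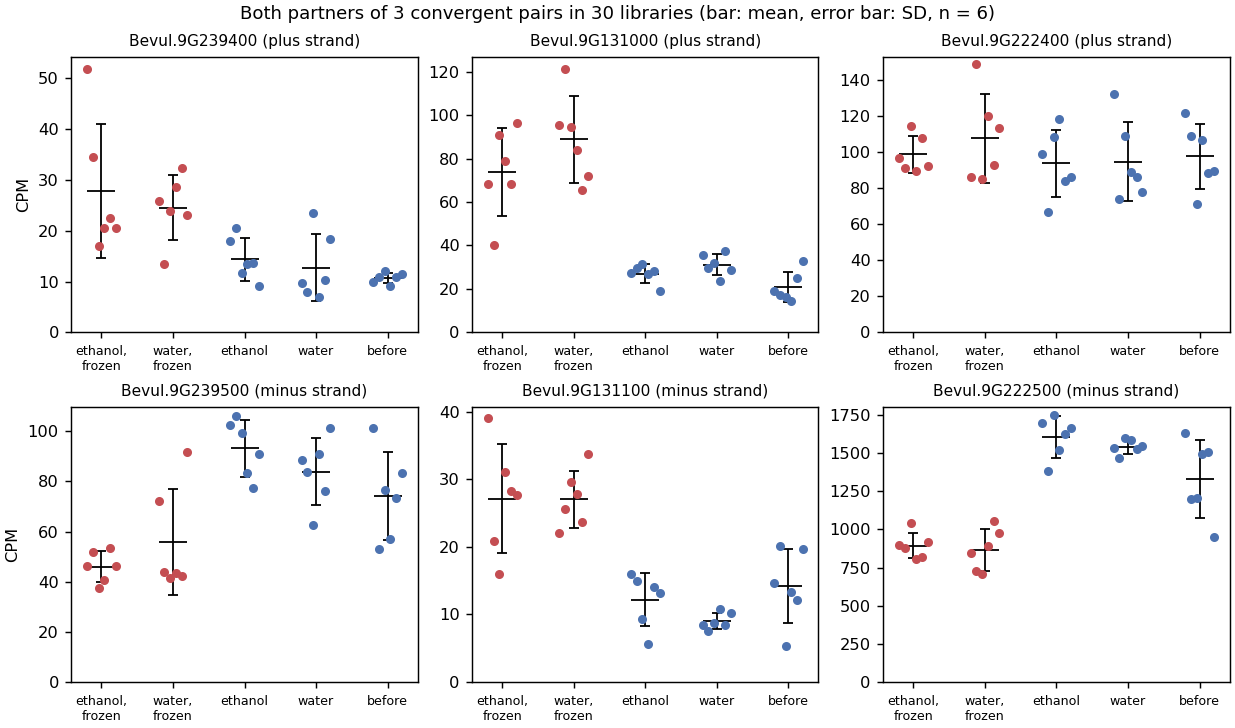
Levels in CPM of both partners of 3 convergent pairs, plus-strand gene above and minus-strand gene below, in the 6 libraries of each group (points), with mean and SD (bars). Bevul.9G239400 lies higher and Bevul.9G239500 lower in frozen libraries, both genes of the Bevul.9G131000 pair lie higher, and Bevul.9G222500 falls to medians of 887 and 867 CPM after freezing while Bevul.9G222400 has medians of 94.6 and 103.2 CPM.

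In 12 of the 75 convergent pairs with both genes tested, one partner was called after ethanol and freezing while the other was not. After water and freezing this held in 13 of the 75. Over all genes tested, 5.78% rose and 6.53% fell after ethanol and freezing, and 5.02% and 6.09% after water and freezing. How often only 1 partner is called in adjacent convergent pairs was not counted. These counts therefore do not set convergent overlaps apart from other neighbours. The most abundant convergent pair, Bevul.9G222400 (LOC104904837) and Bevul.9G222500 (LOC104904838), shares 586 bases. Bevul.9G222500 had 807, 887 and 1043 CPM after ethanol and freezing, wholly below 1380, 1643 and 1752 CPM after ethanol, and 708, 867 and 1055 CPM after water and freezing, wholly below 1468, 1540 and 1597 CPM after water. It changed by -0.84 ± 0.11 after ethanol (edgeR adjusted p = 9.99e-07) and -0.83 ± 0.11 after water (1.85e-06). Bevul.9G222400 had medians of 94.6 and 92.6 CPM with and without freezing after ethanol and of 103.2 and 87.7 CPM with and without freezing after water, with log2 changes of 0.08 ± 0.16 and 0.18 ± 0.16 that did not pass the test.

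Several other convergent genes fell on freezing beside a partner that did not pass the test. Bevul.7G050100 (LOC104898637) had medians of 31.6 CPM after ethanol and freezing, against 118.6 CPM after ethanol, and 41.2 CPM after water and freezing, against 116.9 CPM after water, with log2 changes of -1.56 ± 0.31 (edgeR adjusted p = 0.000424) and -1.27 ± 0.31 (0.00451). Its partner Bevul.7G050000, with which it shares 148 bases, changed by 0.14 ± 0.21 and -0.01 ± 0.21. Bevul.2G065300 had medians of 259 and 257 CPM after ethanol and water with freezing, against 425 and 487 CPM without, and its groups did not overlap. Its partner across 24 shared bases, Bevul.2G065400, had medians between 4.43 and 10.0 CPM in the groups. Bevul.9G207000, at medians of 633 and 624 CPM with freezing against 1198 and 1084 CPM without, shares 6 bases with Bevul.9G207100, which averaged 3.63 CPM.

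The largest falls by fold were in low to moderate genes. Bevul.2G139200 had a median of 10.8 CPM after ethanol and freezing, against 41.0 CPM after ethanol, a log2 change of -1.75 ± 0.36 (edgeR adjusted p = 0.000475) with no overlap of the groups. After water its change was -1.04 ± 0.35 (0.0464), a call that was lost without water-then-frozen replicate 6 (0.0774) and without water replicate 3 (0.0691). Bevul.2G220600 had a median of 3.18 CPM after water and freezing, against 12.6 CPM after water (-1.84 ± 0.48, edgeR adjusted p = 0.00746), and after ethanol it changed by -0.67 ± 0.47, which did not pass. The abundant Bevul.2G137200 fell by 0.60 ± 0.11 after ethanol and 0.69 ± 0.11 after water on the log2 scale, again without overlap of groups.

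Among convergent genes that rose, Bevul.9G111800 had medians of 68.0 CPM after ethanol and freezing, against 32.9 CPM after ethanol, and 68.8 CPM after water and freezing, against 29.5 CPM after water. It rose by 1.06 ± 0.19 (edgeR adjusted p = 8.37e-05) and 1.32 ± 0.19 (3.89e-06), and the groups did not overlap in either comparison. Bevul.9G224000 rose by 0.74 ± 0.23 after ethanol (0.029) and by 1.16 ± 0.23 after water (0.00049). Together with Bevul.9G239400, Bevul.9G131000 and Bevul.9G131100 these are the 5 convergent genes higher after water and freezing.

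In the nested pair Bevul.9G157700 and Bevul.9G157800 both names fell on freezing. The inner Bevul.9G157800 had 76.9, 81.6 and 98.1 CPM (lowest, median, highest) after ethanol and freezing, just below the 98.5, 135 and 177 CPM after ethanol, and 47.9, 54.4 and 66.7 CPM after water and freezing, below the 69.3, 105.6 and 123.2 CPM after water. Its log2 changes were -0.68 ± 0.17 (edgeR adjusted p = 0.00566) and -0.82 ± 0.17 (0.000884). The host's changes were -0.68 ± 0.17 and -0.81 ± 0.17, which is not an independent observation if the reads were counted for both. Relative to the libraries before pretreatment (126.6, 193 and 328 CPM), Bevul.9G157800 after water had also fallen, by 1.01 ± 0.17 on the log2 scale (0.000284). After ethanol the inner gene passed the threshold (-0.59 ± 0.17, edgeR adjusted p = 0.0476) and the host did not (-0.57 ± 0.17, 0.0547), although their counts are nearly equal, and without ethanol replicate 4 the inner gene did not pass either (0.086).

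Besides this pair, 2 same-strand nests held a called gene in both freezing comparisons. The host Bevul.6G080200 had 27.7, 35.6 and 50.4 CPM after ethanol and freezing, wholly above 11.2, 16.2 and 19.4 CPM after ethanol, and a median of 30.9 CPM after water and freezing, against 17.3 CPM after water, where the groups overlapped. It rose by 1.24 ± 0.27 (edgeR adjusted p = 0.00124) and 0.94 ± 0.27 (0.0173). Its inner gene Bevul.6G080300, whose reads came to 42.1% of the host's, changed by 0.51 ± 0.35 and 0.56 ± 0.36 and did not pass. The change of the host's reads outside the inner gene was not tested separately. Bevul.2G081500, which hosts inner genes on both strands, had medians of 78.2 and 82.6 CPM after ethanol and water with freezing, against 41.0 and 43.5 CPM without, and rose by 0.83 ± 0.17 and 0.92 ± 0.17.

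Among opposite-strand nests, the inner gene Bevul.5G237100 had medians of 14.7 CPM after ethanol and freezing, against 7.59 CPM after ethanol, and 19.7 CPM after water and freezing, against 8.56 CPM after water. It rose by 0.90 ± 0.30 (edgeR adjusted p = 0.0407, and 0.0795 without ethanol replicate 4) and by 1.11 ± 0.30 (0.00983), while its low host Bevul.5G237000 changed by 0.63 ± 0.76 after ethanol and 1.08 ± 0.77 after water and did not pass the test. The host Bevul.2G251200 had 25.8, 30.3 and 35.3 CPM after ethanol and freezing, wholly above 5.86, 16.7 and 19.0 CPM after ethanol, and rose by 1.05 ± 0.28 after ethanol and 1.33 ± 0.29 after water. Bevul.9G232600 fell after water, with a median of 4.32 CPM after water and freezing, against 11.2 CPM after water (-1.35 ± 0.41, edgeR adjusted p = 0.0231). After ethanol its medians were also lower with freezing, 6.09 CPM against 14.8 CPM, but the change did not pass the test. The abundant inner gene Bevul.9G062000 had medians of 1163 and 1192 CPM after ethanol and water with freezing, against 1355 and 1415 CPM without. Its change after water (-0.26 ± 0.09, edgeR adjusted p = 0.0494) was lost without water replicate 3 (0.141).

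In the same-strand class, Bevul.9G016800 was the one gene called in both freezing comparisons, with 81.3, 100.98 and 121.9 CPM after ethanol and freezing, against 54.5, 64.0 and 103.8 CPM after ethanol, and 85.8, 98.0 and 119.2 CPM after water and freezing, against 54.8, 65.2 and 86.4 CPM after water. It rose by 0.52 ± 0.15 (edgeR adjusted p = 0.0171) and 0.56 ± 0.15 (0.0111), while Bevul.9G016700, whose end runs 411 bases into it, changed by -0.48 ± 0.36 and -0.29 ± 0.36. In the divergent class, Bevul.2G160400 rose after ethanol, with a median of 18.7 CPM after ethanol and freezing, against 7.26 CPM after ethanol (1.66 ± 0.48, edgeR adjusted p = 0.0165). After water its medians were also higher with freezing, 13.9 CPM against 8.01 CPM, but the change did not pass the test. Bevul.2G248400, which shares 329 bases of 5′ end with Bevul.2G248500, fell after water, with a median of 33.0 CPM after water and freezing, against 76.5 CPM after water (-1.07 ± 0.21, edgeR adjusted p = 0.000439). Its change after ethanol was -0.59 ± 0.21 and did not pass, and Bevul.2G248500 changed by 0.36 ± 0.26 after ethanol and 0.12 ± 0.26 after water.

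To test whether partners responded differently, rather than compare calls, the log2 ratio of the 2 partners was fitted with limma in every neighbouring pair of the genome in which both genes passed the filter, 9843 pairs in all. This test was added after the data had been seen. The ratio changed on freezing in 10 of the 130 overlapping pairs after ethanol (7.69%), beside 6.57% of all neighbouring pairs, and in 7 after water (5.38%), beside 5.62% of all neighbouring pairs. These shares lie near those of neighbours in general, but the 130 include 11 same-strand pairs and 17 same-strand nests. Of these, 0 were called in either comparison. If reads were counted for both genes, shared reads would hold such ratios steady, so the pooled shares are not a like comparison. Of the 75 convergent pairs tested, 9 were called after ethanol (12.0%) and 6 after water (8.00%), beside 7.50% and 6.15% of 2359 adjacent convergent pairs without overlap, and the difference between these shares was not tested. Of the 7 divergent pairs tested, 1 was called each time, the pair of Bevul.2G248400 and Bevul.2G248500. The ratio of Bevul.9G239400 to Bevul.9G239500 rose by 1.89 ± 0.34 on the log2 scale after ethanol (limma adjusted p = 0.000381) and by 1.67 ± 0.34 after water (0.00194). That of Bevul.9G222400 to Bevul.9G222500 rose by 0.94 ± 0.19 (limma adjusted p = 0.00117) and 1.03 ± 0.19 (0.000537), and that of Bevul.7G050000 to Bevul.7G050100 by 1.77 ± 0.35 (0.00111) and 1.33 ± 0.35 (0.0171).

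**Figure D4:**
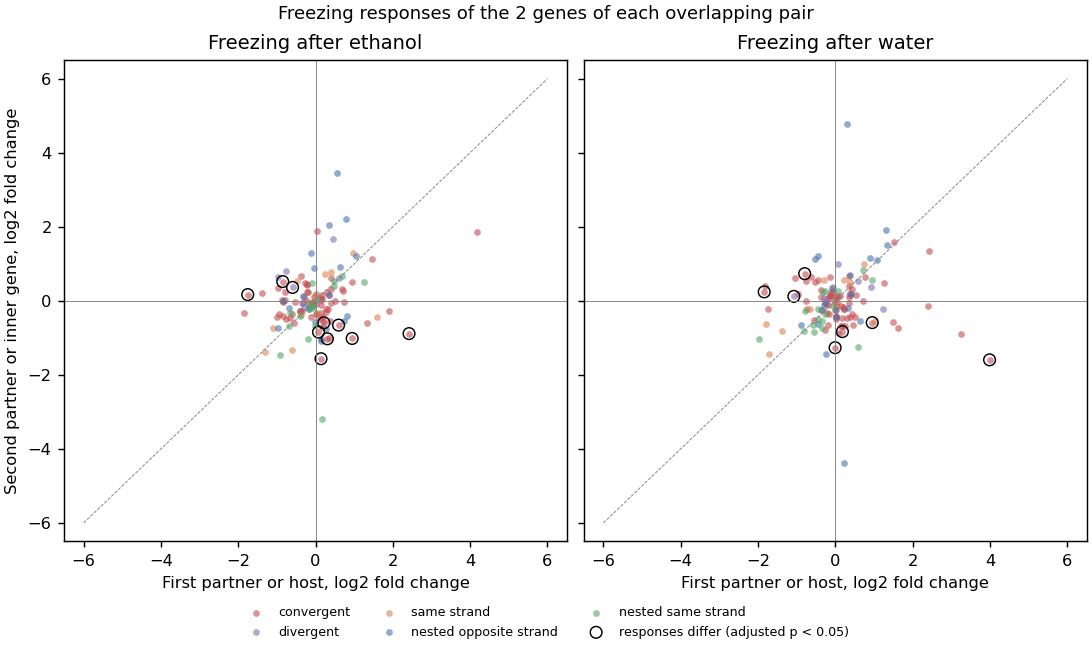
Log2 fold change on freezing of the second partner or inner gene (vertical) against that of the first partner or host (horizontal) in the 130 overlapping pairs with both genes tested, coloured by class, with a dashed line of equal change. Rings mark the 10 pairs after ethanol and 7 pairs after water whose partners responded differently in the limma test. Of the pairs plotted, 75 are convergent, with 9 rings after ethanol and 6 after water.

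Ethanol itself was not seen to change overlapping genes. Comparing ethanol with water in unfrozen shoots, edgeR called 0 of the 388 in either direction, beside 0% higher and 0.00708% lower over all genes. In frozen shoots it also called 0, beside 0.0212% higher and 0.0849% lower over all genes. At an unadjusted p under 0.05 there were 17 overlapping genes in each comparison (4.38%), beside 3.95 and 3.53% of all genes, and DESeq2 called 0 in both. The difference between the freezing responses after ethanol and after water was called in 0 overlapping genes by either tool. At an unadjusted p under 0.05 there were 15 of the 388 (3.87%), beside 2.87% of all genes. The ratio of partners differed between ethanol and water in 0 of the 9843 neighbouring pairs in limma, in frozen and in unfrozen shoots. At an unadjusted p under 0.05 there were 3 and 4 of the 130 overlapping pairs, and the share over all neighbouring pairs was not counted.

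Relative to shoots before pretreatment, 5 overlapping genes rose and 9 fell after ethanol, beside 1.72% and 2.05% of all genes, and 5 rose and 6 fell after water, beside 1.64% and 1.46% of all genes. Both comparisons share the libraries before pretreatment, so their calls are not independent, and plant age differs with them. The convergent gene Bevul.2G208500 (LOC104906430) had 14.7, 42.7 and 50.9 CPM after ethanol and 27.3, 35.5 and 47.3 CPM after water, against 80.7, 92.4 and 116.5 CPM before pretreatment. It changed by -1.22 ± 0.22 (edgeR adjusted p = 0.000562) and -1.35 ± 0.22 (0.000108) without overlap of groups, and it had medians of 36.5 and 36.1 CPM after freezing. Its partner Bevul.2G208400, which shares 23 bases with it, had medians between 21.1 and 28.0 CPM in all groups.

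The 5 genes higher after ethanol were Bevul.2G144300, Bevul.9G224000, Bevul.9G234300, Bevul.9G018200 and Bevul.2G222600. Those higher after water were Bevul.2G144300, Bevul.9G234300, Bevul.9G018200, Bevul.7G042800 and Bevul.3G221500. The host Bevul.2G144300 had 38.8, 71.9 and 86.4 CPM after ethanol and 41.8, 61.8 and 89.9 CPM after water, against 17.3, 27.6 and 50.7 CPM before pretreatment (1.14 ± 0.23, edgeR adjusted p = 0.00257, and 1.01 ± 0.23, 0.00876). Bevul.7G042800 had a median of 38.4 CPM after water, against 16.0 CPM before, but the call (edgeR adjusted p = 0.0202) was lost when only the compared groups were fitted (0.104). So were those of Bevul.9G018200 (0.0772 after ethanol and 0.0511 after water), Bevul.9G224000 (0.0585) and Bevul.3G221500 (0.0931). Without ethanol replicate 4 the call of Bevul.9G224000 was lost (0.052), and without water replicate 3 that of Bevul.3G221500 (0.0579). Bevul.2G222600 was at 0 in all 6 libraries before pretreatment and at 0 to 3.85 CPM after ethanol, so no fold is given.

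Falls relative to the state before pretreatment included Bevul.2G076900, the long minus-strand partner of the longest convergent overlap. It had medians of 10.9 CPM after ethanol and 14.5 CPM after water, against 23.4 CPM before, and passed the test after ethanol (-1.12 ± 0.28, edgeR adjusted p = 0.0158) but not after water (-0.87 ± 0.28, 0.0813). The inner gene Bevul.9G119300 had 0 to 0.365 CPM after ethanol and 0 to 1.45 CPM after water, against 1.75 to 5.96 CPM before, without overlap of groups. Its call after ethanol (edgeR adjusted p = 0.0485) was lost without ethanol replicate 4 (0.0936). Its host Bevul.9G119200, on the other strand, had medians of 10.1 CPM after ethanol and 11.6 CPM after water, against 8.59 CPM before. By the limma test the ratio of partners changed in 3 of 130 overlapping pairs after ethanol relative to before, beside 1.96% of all neighbouring pairs, and in 2 after water, beside 1.74%. The pairs of Bevul.2G208400 and Bevul.9G119200 were called in both, and that of Bevul.2G186600 and Bevul.2G186700 after ethanol.

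Over the 30 libraries, the rank correlation between partners differed between classes. Spearman's rank correlation of log2(CPM + 1) was computed for the 55 pairs in which both genes averaged at least 5 CPM, as a description, since the points share groups and library depth. Convergent pairs had a median rank correlation of -0.03 (35 pairs), next to -0.01 in 800 adjacent convergent neighbours that do not overlap. The 2 divergent pairs had -0.44 and -0.18, beside a median of 0.04 in 776 adjacent divergent neighbours. Opposite-strand nests had a median of 0.27 (6 pairs), and 0.06 within groups. Same-strand overlaps had a median of 0.45 (5 pairs, 0.17 to 0.99), and 0.47 within groups. In 1604 adjacent same-strand neighbours the medians were 0.06 and 0.03. If reads were counted for both genes, same-strand partners share reads and adjacent genes do not. These medians therefore cannot be compared as co-variation.

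Same-strand nests had a median rank correlation of 0.95 (7 pairs), and the 4 highest were the 4 pairs in which the inner gene held at least 80% of the host's reads, from 0.95 for Bevul.5G129200 to 1.00 for Bevul.9G157700 and Bevul.9G153800. The lowest, -0.05, belonged to Bevul.1G118000, at 1451 CPM, and its 384-base inner gene Bevul.1G118100, at 7.22 CPM. A rank correlation above 0.9 occurred in 5 of the 55 overlapping pairs, among them these 4 nests, and in 7 of 3180 adjacent pairs. If reads were counted for both genes, the shared reads alone would give the 4 nests a high correlation. Adjacent pairs share no bases, so the 2 counts cannot be compared as co-variation. The fifth overlapping pair above 0.9 was the same-strand pair of Bevul.2G086100 and Bevul.2G086200, which share 4971 bases, averaged 28.5 and 29.3 CPM and had a rank correlation of 0.99. How many reads these 2 share could not be counted from gene totals. Bevul.1G176500 and Bevul.1G176600, with the longest same-strand overlap of 8681 bases, had a rank correlation of 0.57. In the most abundant same-strand pair, Bevul.2G036000 averaged 137 CPM and Bevul.2G035900 averaged 0.543 CPM.

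**Figure D5:**
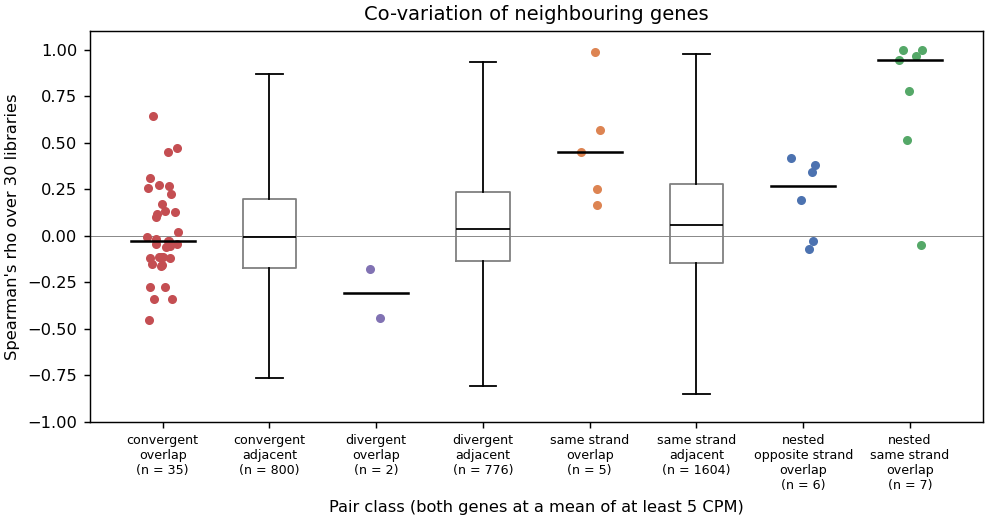
Spearman's rank correlation between the 2 genes of a pair over 30 libraries, for overlapping pairs (points, with the median as a bar) and for adjacent genes that do not overlap (box with quartiles, whiskers to the lowest and highest value). Convergent overlaps centre on -0.03, next to -0.01 for adjacent convergent genes. Same-strand nests, whose 2 genes may share reads, centre on 0.95.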

How the data were processed

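The deposited table holds whole read counts per gene and library. The submitters' processing notes list HISAT2 and featureCounts, with Trimmomatic, bcl2fastq and DESeq2; no version, strand setting or treatment of shared reads is given. The build they list is TAIR10, but chromosome names per the file headers are those of sugar beet EL10.2. The authors' DESeq2-scaled table was not used.

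Counts were tested with edgeR 4.0.16 in R 4.3.3 (filterByExpr by group, TMM, quasi-likelihood fit of 5 group means to 30 libraries, 14128 genes, Benjamini-Hochberg threshold 0.05, two-sided). Standard errors are the log2 fold change over the square root of F. Partner ratios were differences of log2 CPM (prior count 2), fitted with limma 3.58.1. Both tests were tested on simulated data. The alternatives were relative log expression scaling, no filter, a replicate block, fitting only the compared groups, DESeq2 1.42.0, wider overlap limits, a prior count of 5 and leaving out single libraries. Genes were matched to RefSeq where each covered at least 0.5 of the other, without regard to strand.

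The genes and lists were chosen with earlier results of these data known. Named genes were the 2 that rose and the 2 that fell most per comparison at a mean of at least 5 CPM, pairs with both partners called, the longest, most abundant, most and least correlated pair per class, and members of counts of 5 or fewer; other genes named were chosen after their values were seen. The files pair the genes with no sequence, so none is printed.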

Additional observations from a re-analysis of the deposited data

Results flagged for a closer look

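Single libraries stood far from the other 5 of their group in 18 of 381 combinations of a named gene and a group; chance flags about 1 in 20, or 19.1. After ethanol and freezing, replicate 5 had 100.9 CPM of Bevul.9G157700 and 98.1 CPM of its inner gene Bevul.9G157800, above the 79.4 to 87.1 and 76.9 to 83.7 CPM of the others, a host and inner gene with nearly equal counts. In the same group, replicate 1 had 48.1 CPM of Bevul.9G061900 (others 71.7 to 77.1), replicate 2 had 453 CPM of Bevul.9G069100 (others 282 to 329) and replicate 3 had 20.5 CPM of Bevul.2G248500 (others 12.6 to 15.5). After water and freezing, replicate 6 had 5.98 CPM of Bevul.5G129300 (others 12.5 to 14.5), 20.1 CPM of Bevul.2G076900 (others 10.5 to 13.8) and 982 CPM of Bevul.9G207000 (others 497 to 651). Replicate 4 of that group had 7.01 CPM of Bevul.9G069200 (others 3.24 to 4.55) and 14.9 CPM of Bevul.7G050000 (others 24.3 to 28.1), replicate 2 had 20.6 CPM of Bevul.2G139300 (others 5.46 to 11.0) and replicate 5 had 55.8 CPM of Bevul.7G042800 (others 25.1 to 32.8). After ethanol, replicate 5 had 10.5 CPM of Bevul.5G127600 (others 2.92 to 5.13), and replicate 4 had 14.7 CPM of Bevul.2G208500 (others 41.2 to 50.9) and 71.8 CPM of Bevul.2G081500 (others 32.5 to 43.4). After water, replicate 5 had 442 CPM of Bevul.9G069100 (others 281 to 329), and replicate 1 had 24.1 CPM of Bevul.2G195200 (others 1.90 to 3.50) and 26.7 CPM of Bevul.9G018200 (others 13.4 to 17.8).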

How the results depend on the processing

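Across the alternatives tried, no result changed direction. Of 557 values for single calls under alternatives, 519 kept their side of the threshold and 38 lost it. Replicate numbers showed no strong pairing of the libraries. Same-numbered libraries of 2 groups had correlations of their deviations from -0.109 to 0.101, and 2 of 36 were above 0.1. In 10 of 36 cases a library correlated best with its own number, and whether this exceeds chance was not tested. With the replicate number as a replicate block, 38 overlapping genes were called for freezing after ethanol, 36 of them among the 40 without the block, and 32 after water, 30 of them among the 33. Counting only pairs that share at least 10% of the shorter gene left 11 genes lower on freezing after water, against 20 over all pairs. Fitting the compared groups alone gave 0 pairs with opposite calls after water, against 1, and 3 genes higher after water than before pretreatment, against 5. DESeq2 called 10 higher and 10 lower after water than before (against 5 and 6), 9 higher after ethanol than before (against 5), and 2 pairs with both partners moving the same way in each of these comparisons (against 1 after water and 0 after ethanol). Genes lower after ethanol than before numbered 5 to 9 when single libraries were left out, 5 without ethanol replicate 4, against 9. Leaving out single libraries gave 13 to 18 higher and 21 to 25 lower for freezing after ethanol, and 13 to 15 higher and 16 to 25 lower after water. At a mean of at least 20 CPM, the only same-strand pair left was Bevul.2G086100 and Bevul.2G086200, with a rank correlation of 0.99. The median of the 5 same-strand pairs at 5 CPM was 0.45. The causes of these shifts were not tested, beyond the fewer genes or pairs that the stricter limits leave. Of the 168 inner genes, 39 had enough reads at this depth to be tested.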
